A study of Oreochromis niloticus with 6 samples.

Results

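The enzymes of purine and pyrimidine metabolism were followed in the liver of GIFT, a farmed strain of Nile tilapia, after 96 h of acute hypoxia. Members were taken from the KEGG annotation column of the deposited table, as loci annotated to the purine or the pyrimidine metabolism pathway. Loci also annotated to DNA replication and loci whose name starts with polr (subunits of RNA polymerases) were left out. A joined locus named eef1g;polr2gl does not start so and stayed in. Members had to average 1 FPKM or more across all 6 libraries. FPKM counts fragments per length of transcript and per mapped fragment of the library. The table holds 31872 loci, of which 342 carry the annotation. Of these, 147 were under the minimum, 3 were removed for DNA replication and 19 for a name starting with polr. This left 173 members among the 16423 loci with at least 1 FPKM. There were 113 members of the purine pathway only, 25 of the pyrimidine pathway only and 35 of both. Just outside the minimum lay adcy6a at 0.966 FPKM and a copy of RRM2 at 0.989 FPKM, and just inside it ddx20 at 1.04 FPKM and CPSF7 at 1.04 FPKM.

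The hypoxia-stressed group (HG) was held at 0.7 to 0.8 mg/L dissolved oxygen (DO) by bubbling nitrogen, and the control group (CG) at 5.0 mg/L, with 3 liver libraries each. The age of the fish is not given, they were fasted before the experiment, and the DO stated for the HG in the study's text is lower than in the labels. The labels and the study's text also give unlike numbers of fish for each tank and do not say whether a library holds a single fish or several. The study's text calls the libraries biological replicates and describes 3 tanks for each group, to which the treatment was applied. The p-values measure the spread between libraries, which may be partly technical.

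Purines (adenine and guanine) and pyrimidines (uracil, cytosine and thymine) are built in 2 ways. De novo synthesis assembles the ring from amino acids, folate carbon and phosphoribosyl pyrophosphate, and salvage returns free bases and nucleosides to nucleotides. Breakdown strips phosphate and sugar from the base and then degrades the ring. In fish, purines are taken through xanthine and uric acid to allantoin and further, and pyrimidines to beta-alanine or its methyl derivative. The liver carries out all of these routes.

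The KEGG annotation also takes in proteins that use nucleotides without making or degrading them. Of the 173 members, 93 are enzymes of nucleotide metabolism and 80 are not, among them 34 helicases and chromatin remodelers and 14 AAA ATPases. The enzymes comprise 18 of synthesis, 9 of salvage, 22 of breakdown and 44 of other roles. A symbol marked (1 of many), carried by 19 members, belongs to a gene with several copies that may share reads, and 7 members join several symbols in 1 locus, whose parts cannot be told apart.

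Differences between HG and CG were tested with limma on log2(FPKM + 1), with p adjusted over all 16423 loci by the Benjamini-Hochberg method. A member is said to rise or fall where the adjusted p was under 0.05, and fold changes are HG over CG on this scale, on which changes of genes with low FPKM come out too small. In HG, 18 of 173 members (10.4%) rose and 17 (9.83%) fell, against 8.27% and 12.1% of all tested loci, and 20.2% of members changed in either direction, against 20.4% of all tested loci. The share that changed was thus close to that of all tested loci. The median log2 fold change was 0.02 for the members, 0.19 for the 93 enzymes and -0.14 for all tested loci. The HG and CG libraries did not overlap in 87 members (50.3%), 50 higher and 37 lower in HG, against 43.5% of all tested loci (16.5% higher and 27.0% lower). With median-of-ratios scaling the median of all loci moved to 0.01 and that of the members to 0.16. This scaling called 1817 loci higher and 1595 lower, where the deposited values gave 1359 and 1990, and 31 members higher and 14 lower. A linear model per locus of the kind Ballgown fits, with library size as covariate, called 0 of the 16423 loci after adjustment, while 33 members and 2618 loci had an unadjusted p under 0.05 in it.

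The FPKM of a library summed to between 459912 and 493870, and read counts were not used here. Library CG-1 stood apart on the first principal component, at 92.5 against 55.4 and 53.2 for CG-2 and CG-3, with the HG libraries between -69.7 and -63.4. Library HG-2 stood apart on the second component, at -62.5 against 22.3 and 42.1 for HG-1 and HG-3. Without CG-1, 15 members rose and 8 fell, beside 882 and 1219 of all 16423 tested loci. Without HG-2, 12 members rose and 9 fell, beside 953 and 1252 of all tested loci. Markers of some other cells also moved with the groups. In HG, 6 of 7 exocrine pancreas loci fell, and their summed FPKM was 74.2 to 535 in HG libraries and 901 to 1930 in CG libraries. Of the bile duct markers 4 of 5 tested loci fell (216 to 288 FPKM in HG and 604 to 699 in CG), of the endothelium markers 2 of 3 (9.26 to 13.7 in HG and 16.8 to 22.6 in CG), and of the macrophage and neutrophil markers 3 of 8 (1807 to 3157 in HG and 1845 to 2178 in CG). Of 11 hepatocyte loci 1 rose and none fell (35896 to 45350 FPKM in HG and 22993 to 36743 in CG). No tested erythrocyte locus passed (17.9 to 33.4 FPKM in HG and 8.23 to 30.9 in CG). Nor did the tested locus of dividing cells (sums of 6.66 to 11.8 FPKM in HG and 11.2 to 23.8 in CG). The part of these markers in the results was not tested, and in whole tissue fewer cells of a type and less RNA per cell cannot be told apart.

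In synthesis, transcripts of gart and atic rose in HG, and those of PRPS2, PRPSAP1 (MSTRG.10553), prpsap2 and dhodh fell. Of the 13 purine synthesis members 2 rose and 3 fell, and of the 5 pyrimidine synthesis members none rose and 1 fell. Over all tested loci 8.27% rose and 12.1% fell. The HG and CG libraries did not overlap in 8 of the 18 members, 4 in each direction, against 43.5% of all tested loci, which is close to the same share.

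gart encodes the trifunctional enzyme of 3 early steps of the purine ring. It was at 8.23, 5.23 and 6.30 FPKM in HG, against 0.962, 1.70 and 1.08 FPKM in CG. Every HG library lay above every CG library, and gart rose with a log2 fold change of 1.75 (SE 0.23, limma adjusted p 0.00442). atic encodes the bifunctional enzyme of the last 2 steps, which closes the ring as IMP. It was at 19.3, 17.1 and 30.0 FPKM in HG, against 4.04, 5.93 and 3.34 FPKM in CG, without overlap, and rose with a log2 fold change of 2.08 (SE 0.29, limma adjusted p 0.00551). Both calls held with each library left out.

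paics, which encodes an enzyme of steps between them, was at 9.48, 11.3 and 13.7 FPKM in HG, against 1.91, 7.69 and 3.86 FPKM in CG. The groups did not overlap, but the CG libraries were spread widely and the change did not pass (log2 fold change 1.32, SE 0.40, limma adjusted p 0.0607). It passed without CG-2, at a limma adjusted p of 0.0249. ppat, which encodes the committing amidotransferase of the pathway and lies next to paics in the RefSeq annotation of assembly O_niloticus_UMD_NMBU, had 1.23, 2.59 and 1.87 FPKM in HG and 0.346, 1.5 and 0.874 FPKM in CG, with overlap (log2 fold change 0.62, limma adjusted p 0.208). pfas, the enzyme of the step after the formyl transfer, is not annotated to either pathway. It had 4.99, 5.16 and 15.2 FPKM in HG and 3.84, 12.6 and 3.87 FPKM in CG, and 1 library of each group stood above the rest (limma adjusted p 0.729). At the branch from IMP to AMP and GMP none of adsl, adssl, impdh1b, impdh2 and gmps passed, with log2 fold changes from -0.36 to 0.40. gmps, the GMP synthetase, lay between 6.24 and 8.13 FPKM in HG and between 7.16 and 7.61 FPKM in CG.

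**Figure D1:**
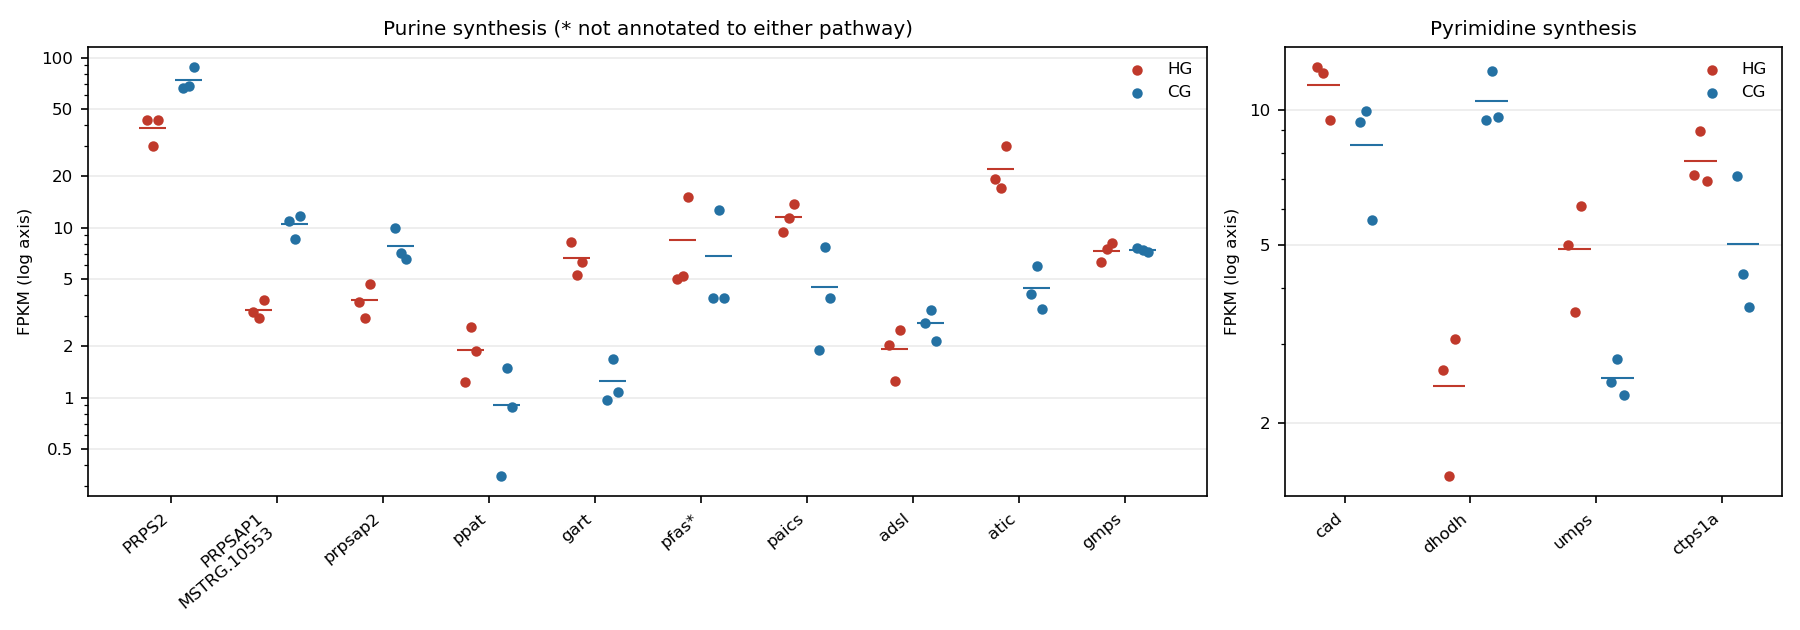
FPKM on a log axis of the synthesis genes in the order of their pathways, with a point per library and a bar at the mean of the 3 HG (left, red) and 3 CG (right, blue) libraries of each gene. gart and atic are above CG in all HG libraries, while PRPS2, PRPSAP1 (MSTRG.10553), prpsap2 and dhodh are below it in all HG libraries. An asterisk marks a gene that is not annotated to either pathway.

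PRPS2 encodes a phosphoribosyl pyrophosphate synthetase, which makes the sugar donor used by both routes. It was at 43.1, 30.0 and 42.8 FPKM in HG, against 66.4, 67.9 and 87.5 FPKM in CG. It was the most abundant of the 18 synthesis members, every HG library lay below every CG library, and it fell with a log2 fold change of -0.93 (SE 0.24, limma adjusted p 0.0399). PRPSAP1 and prpsap2 encode proteins that associate with this synthetase. The PRPSAP1 locus MSTRG.10553 had 3.19, 2.95 and 3.73 FPKM in HG and 11.0, 8.55 and 11.7 FPKM in CG, without overlap, and fell with a log2 fold change of -1.41 (SE 0.20, limma adjusted p 0.00578). Another PRPSAP1 locus, MSTRG.16920, had 2.98, 5.64 and 3.49 FPKM in HG and 3.32, 3.61 and 4.44 FPKM in CG, with overlap (log2 fold change 0.04, limma adjusted p 0.916). Both carry the (1 of many) mark, so their split of reads is uncertain. prpsap2 (MSTRG.8961) had 3.67, 2.92 and 4.66 FPKM in HG and 9.91, 7.09 and 6.53 FPKM in CG and fell with a log2 fold change of -0.89 (SE 0.24, limma adjusted p 0.0413). Another prpsap2 locus (MSTRG.8960), without the annotation, also fell (log2 fold change -1.07, limma adjusted p 0.0198). It had 0.99, 1.74 and 2.03 FPKM in HG and 4.88, 3.85 and 4.33 FPKM in CG, without overlap. The calls of PRPS2 and prpsap2 (MSTRG.8961) were lost with any library left out, at limma adjusted p of 0.0634 to 0.0947 and 0.0609 to 0.119. The call of MSTRG.8960 was kept without HG-3 or CG-2 (0.038 and 0.0458) and lost without any other library (0.0518 to 0.0625). That of PRPSAP1 held.

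In pyrimidine synthesis, dhodh encodes the mitochondrial dihydroorotate dehydrogenase, which passes electrons to ubiquinone. It was at 2.63, 1.53 and 3.09 FPKM in HG, against 9.48, 12.2 and 9.62 FPKM in CG. The groups were far apart, and dhodh fell with a log2 fold change of -1.76 (SE 0.24, limma adjusted p 0.00517), a call that held with each library left out. The steps on either side did not pass. cad, the enzyme of the first steps, had 12.4, 12.1 and 9.48 FPKM in HG and 9.39, 9.92 and 5.68 FPKM in CG (log2 fold change 0.43, limma adjusted p 0.279). umps, the enzyme of the last steps to UMP, had 4.98, 3.54 and 6.11 FPKM in HG and 2.47, 2.78 and 2.32 FPKM in CG, without overlap (log2 fold change 0.72, limma adjusted p 0.0612). The CTP synthases ctps1a and ctps1b had log2 fold changes of 0.57 and 0.29 and did not pass (limma adjusted p 0.167 and 0.60).

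Salvage showed no call in either direction. None of the 9 salvage members passed after adjustment, 1 had an unadjusted p under 0.05 in limma and 0 in the Ballgown-style model, and in none of them were the groups apart. Of all tested loci 20.4% changed, and in 43.5% the groups did not overlap. The 9 members are few to set beside these shares. hprt1, which returns hypoxanthine and guanine to nucleotides, had 10.3, 20.8 and 15.8 FPKM in HG and 17.8, 18.8 and 17.8 FPKM in CG. aprt, which does so for adenine, had 5.54, 6.10 and 8.05 FPKM in HG and 3.91, 4.72 and 5.86 FPKM in CG. Both genes overlapped between the groups. adka, an adenosine kinase, had 9.90, 12.7 and 13.8 FPKM in HG and 2.95, 10.6 and 3.02 FPKM in CG. CG-2 was near the HG libraries and the other CG libraries were low (log2 fold change 1.20, SE 0.44, limma adjusted p 0.0994), and without CG-2 the change passed at a limma adjusted p of 0.0131. The 6 pyrimidine salvage members (uck1, uck2b, uckl1a, tk2, cda and a locus named si:ch211-243j20.2) had log2 fold changes between -0.49 and 0.45. The salvage genes mtap and uprt are not annotated to either pathway, and neither passed. mtap was higher in every HG library (log2 fold change 0.73, limma adjusted p 0.0627), and uprt was lower in every HG library (-0.40, limma adjusted p 0.24).

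Most of the breakdown genes that changed rose. Of the 22 breakdown members 6 rose and 2 fell, where 8.27% of all tested loci rose and 12.1% fell. Their median log2 fold change was 0.48. The groups did not overlap in 12 higher and 5 lower members, against 16.5% and 27.0% of all tested loci. Among purine breakdown genes 3 of 13 rose and 1 fell, and among pyrimidine breakdown genes 3 of 9 rose and 1 fell. The count of higher genes was 2 without HG-1 and 3 without HG-2, HG-3, CG-2 or CG-3, and that of lower genes was 1 without HG-1 or HG-3. Without CG-1 it was 6 higher and 2 lower, with dpydb lost and upp2 gained. Of the phosphorylases that split nucleosides, pnp5a rose, pnp5b and the locus of upp1 fell, and upp2 and TYMP did not pass. Further along the route, the genes of ring degradation that changed all rose.

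Purine nucleoside phosphorylases split inosine and guanosine into base and ribose phosphate. pnp5a was at 22.7, 43.6 and 66.3 FPKM in HG, against 12.7, 4.51 and 9.07 FPKM in CG, and every HG library was above CG. It rose with a log2 fold change of 2.18 (SE 0.48, limma adjusted p 0.0228). pnp5b was at 0.275, 0.158 and 0.506 FPKM in HG, against 21.1, 5.34 and 10.5 FPKM in CG. It was nearly undetected in all HG libraries and fell with a log2 fold change of -3.17 (SE 0.44, limma adjusted p 0.00514), the largest fall among the 93 enzymes. In CG the pair had similar means, 8.75 ± 4.10 FPKM for pnp5a and 12.3 ± 8.03 FPKM for pnp5b (SD, n = 3), and in HG nearly all of their summed level was pnp5a. The call of pnp5a was lost without HG-2, HG-3, CG-2 or CG-3 (limma adjusted p 0.0691, 0.0659, 0.0578 and 0.0544), and that of pnp5b held with each library left out.

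xdh encodes xanthine dehydrogenase, which oxidizes hypoxanthine and xanthine to uric acid. It was at 33.7, 47.4 and 31.8 FPKM in HG, against 10.4, 13.2 and 17.7 FPKM in CG, without overlap, and rose with a log2 fold change of 1.4 (SE 0.28, limma adjusted p 0.0163). gda, the guanine deaminase that feeds xanthine, was at 37.4, 44.6 and 34.4 FPKM in HG, against 24.8, 18.8 and 13.1 FPKM in CG, also without overlap, and rose with a log2 fold change of 1.03 (SE 0.28, limma adjusted p 0.0423). The call of xdh was lost without HG-1 (limma adjusted p 0.0517), and that of gda without any library but CG-1 (0.0807 to 0.113).

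Beyond uric acid, uox (urate oxidase) was the most abundant of all 173 members, at 1134, 757 and 783 FPKM in HG and 439, 680 and 721 FPKM in CG. The groups did not overlap but lay close (log2 fold change 0.55, SE 0.28, limma adjusted p 0.202). A locus annotated as allantoinase, zgc:103559, had 33.1, 22.7 and 30.7 FPKM in HG and 9.99, 16.8 and 17.6 FPKM in CG, without overlap (log2 fold change 0.94, SE 0.29, limma adjusted p 0.061). Further steps of the route are not annotated to it. allc, the allantoicase of the following step, was at 34.0, 48.3 and 35.7 FPKM in HG, against 5.55, 9.24 and 10.5 FPKM in CG, and rose with a log2 fold change of 2.12 (SE 0.29, limma adjusted p 0.00471). The locus that holds urah, which encodes the hydrolase after urate oxidase, also joins mvda, cyba and pdcd5. It had 28.2, 50.1 and 44.2 FPKM in HG and 9.48, 11.9 and 8.86 FPKM in CG and rose with a log2 fold change of 1.89 (limma adjusted p 0.00614), and the share of urah in it cannot be told apart.

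No member among the deaminases and nucleotidases at the start of the route passed. cecr1a, a secreted adenosine deaminase, had 1.27, 3.21 and 2.0 FPKM in HG and 0.445, 0.767 and 0.485 FPKM in CG (log2 fold change 0.97, limma adjusted p 0.0603). ampd2a (MSTRG.3929), an AMP deaminase, had a log2 fold change of 0.86 (limma adjusted p 0.0899). Another ampd2a locus (MSTRG.3930), without the annotation, went the other way and did not pass (log2 fold change -1.51, limma adjusted p 0.202). It had 0.097, 0.144 and 0.418 FPKM in HG and 0.138, 2.23 and 10.1 FPKM in CG, with overlap. ada, the intracellular adenosine deaminase, was below the minimum with a mean of 0.513 FPKM. The cytosolic nucleotidase nt5c2b, not annotated to either pathway, fell: it was at 18.2, 8.79 and 13.2 FPKM in HG, against 67.5, 66.6 and 35.8 FPKM in CG (log2 fold change -2.0, limma adjusted p 0.0122). Its relatives nt5c2a and nt5c2l1 had log2 fold changes of -0.47 and -0.48 and did not pass.

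**Figure D2:**
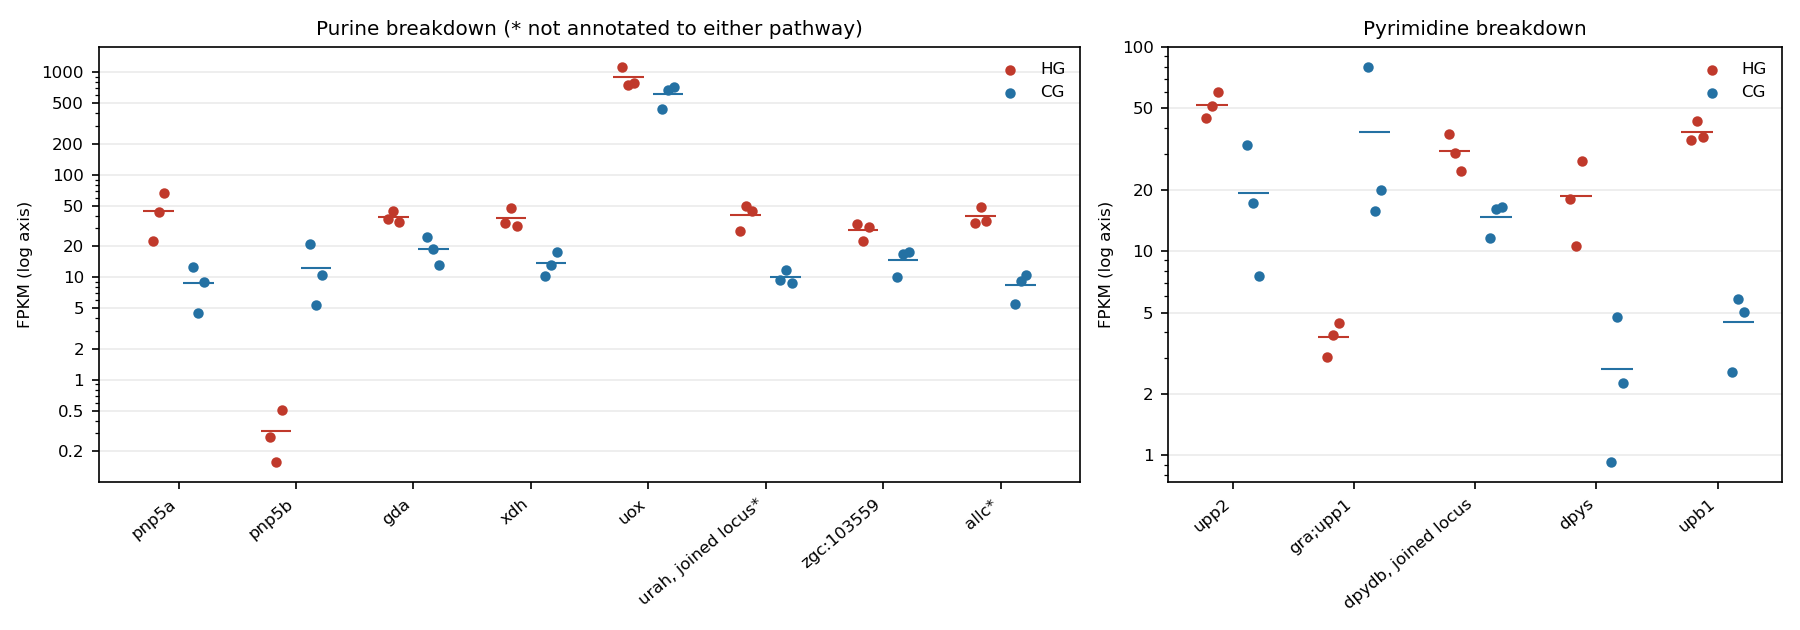
FPKM on a log axis of the breakdown genes in the order of their pathways, with a point per library and a bar at the mean of the 3 HG (left, red) and 3 CG (right, blue) libraries of each gene. pnp5a, gda, xdh, allc, dpys and upb1 lie above CG in all HG libraries, and pnp5b and the locus with upp1 lie below it. An asterisk marks a locus that is not annotated to either pathway.

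In pyrimidine breakdown the 3 steps from uracil to beta-alanine rose together. The locus of dpydb (dihydropyrimidine dehydrogenase, the reductive step), which also joins c2h1orf27, was at 37.4, 30.2 and 24.7 FPKM in HG, against 11.6, 16.1 and 16.5 FPKM in CG, and rose with a log2 fold change of 1.01 (SE 0.25, limma adjusted p 0.0335). dpys (dihydropyrimidinase, which opens the ring) was at 18.0, 10.6 and 27.5 FPKM in HG, against 0.926, 4.76 and 2.26 FPKM in CG, and rose with a log2 fold change of 2.48 (SE 0.48, limma adjusted p 0.0155). upb1 (beta-ureidopropionase, which releases beta-alanine) was at 34.8, 43.4 and 36.4 FPKM in HG, against 2.57, 5.85 and 5.00 FPKM in CG. All 3 loci were without overlap, and upb1 rose most, with a log2 fold change of 2.89 (SE 0.29, limma adjusted p 0.0019). Its call held with each library left out. That of dpys was lost without HG-1 or HG-3 (limma adjusted p 0.0581 and 0.0522) and that of dpydb without any library but HG-3 (0.0564 to 0.11). Another locus annotated as dihydropyrimidinase, zgc:92107, had 3.34, 5.46 and 2.99 FPKM in HG and 6.58, 7.22 and 7.53 FPKM in CG, lower in every HG library but not past the threshold (log2 fold change -0.75, limma adjusted p 0.0654). It passed without HG-2 (0.0391).

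The uridine phosphorylases, which split uridine into uracil and ribose phosphate, also went apart, though only the locus of upp1 passed. The locus of upp1, which joins gra, was at 3.04, 3.90 and 4.43 FPKM in HG, against 80.0, 15.7 and 19.9 FPKM in CG. CG-1 was far above the other CG libraries, all of which exceeded HG, and the locus fell with a log2 fold change of -2.68 (SE 0.58, limma adjusted p 0.0217). Without CG-1 the log2 fold change was -1.97 (limma adjusted p 0.00947), and the call was lost without HG-1, HG-2 or HG-3 (0.0785, 0.064 and 0.0612). upp2 was at 44.7, 51.5 and 60.0 FPKM in HG and at 32.9, 17.2 and 7.59 FPKM in CG. It was higher in every HG library, but the change did not pass (log2 fold change 1.60, SE 0.48, limma adjusted p 0.0593). Without CG-1, the highest CG library, it passed at a limma adjusted p of 0.0255. TYMP, another nucleoside phosphorylase, had 0.62, 2.97 and 3.18 FPKM in HG and 5.61, 2.66 and 1.91 FPKM in CG, with overlap (log2 fold change -0.46, limma adjusted p 0.508).

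**Figure D3:**
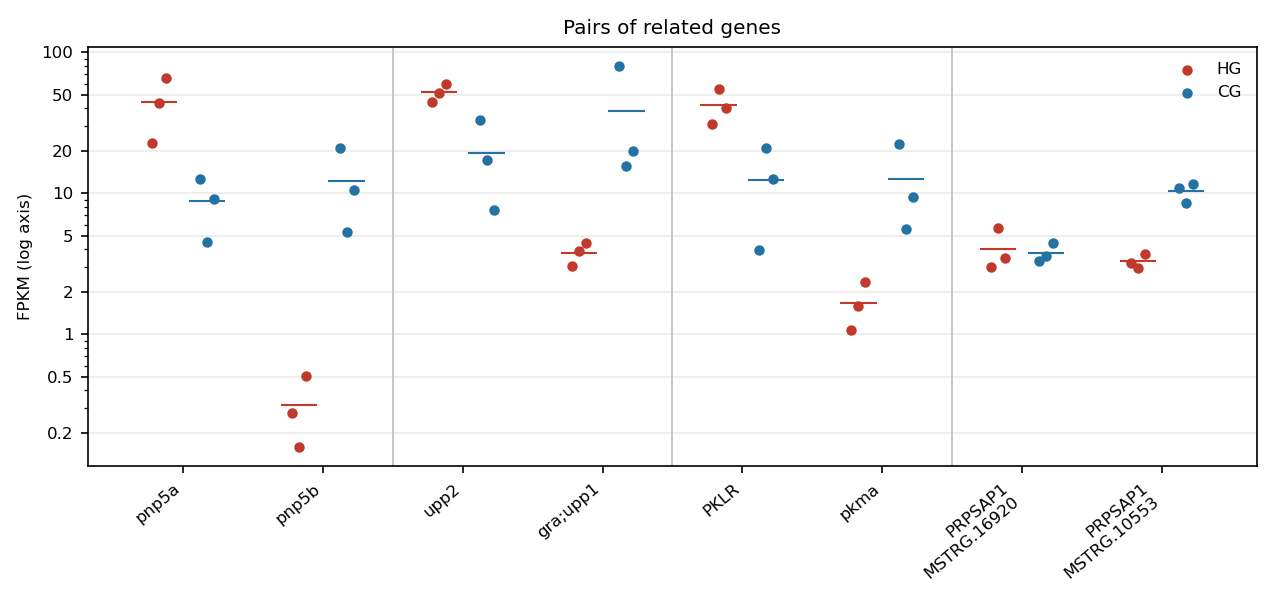
FPKM on a log axis of pairs of related genes, with a point per library and a bar at the mean of the 3 HG (left, red) and 3 CG (right, blue) libraries. In the phosphorylase and pyruvate kinase pairs the left gene is higher and the right gene lower in every HG library than in every CG library, with upp2 and PKLR not past the threshold, and of the PRPSAP1 loci only the right one is apart.

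A similar split was seen in pyruvate kinase, which KEGG places in the purine pathway because it makes ATP. PKLR, the liver and red cell isozyme in mammals, was at 31.0, 55.3 and 40.2 FPKM in HG and 3.98, 20.8 and 12.7 FPKM in CG, higher in every HG library but not past the threshold (log2 fold change 1.88, SE 0.54, limma adjusted p 0.0521). It passed without CG-2 (0.0353). pkma, a muscle-type isozyme, was at 1.08, 1.60 and 2.33 FPKM in HG, against 22.5, 5.61 and 9.47 FPKM in CG, and fell with a log2 fold change of -2.17 (SE 0.47, limma adjusted p 0.0214). Its call was lost without HG-1, HG-2, HG-3 or CG-3 (limma adjusted p 0.079, 0.0649, 0.051 and 0.0517).

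Some neutrophil genes were lower in HG as well. ncf1, a subunit of the phagocyte oxidase, was at 1.62, 0.934 and 1.76 FPKM in HG and 46.2, 23.0 and 59.0 FPKM in CG. mmp9, a neutrophil protease, was at 0.294, 0.320 and 0.725 FPKM in HG and 29.3, 7.57 and 8.18 FPKM in CG. CG-1 was the highest library for mmp9, as it was for pnp5b, upp1 and pkma, and CG-3 was the highest for ncf1. At 46.2% of all tested loci CG-1 was the highest CG library, so this order is common. Of the 8 tested macrophage and neutrophil loci 3 fell (ncf1, mmp9 and an mpx locus). Another mpx locus (MSTRG.6838) had 3.45, 2.46 and 7.20 FPKM in HG and 39.0, 10.7 and 11.4 FPKM in CG. It was lower in every HG library but did not pass (log2 fold change -1.84, limma adjusted p 0.0571). csf1ra and the 3 LYZ loci had log2 fold changes of -0.03 to 0.84 and did not pass, and a LYZ locus was at 0 in 2 libraries of each group. The other LYZ loci, at 693 to 2266 FPKM in HG and 694 to 1434 FPKM in CG, make up most of the summed FPKM of these markers. The symbols mpeg1, marco and cd68 matched no locus, and the part of these cells in the results was not tested.

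The other 44 enzymes held 3 that rose and 5 that fell, close to the 8.27% and 12.1% of all tested loci. The largest rise of any enzyme was that of cmpk2, the mitochondrial UMP and CMP kinase, which in vertebrates is induced by interferon and lies next to rsad2 in the RefSeq annotation. It was at 16.8, 18.1 and 30.5 FPKM in HG, against 1.19, 0.597 and 1.15 FPKM in CG. The groups were far apart, and cmpk2 rose with a log2 fold change of 3.49 (SE 0.28, limma adjusted p 0.00123). Of the other 9 members among nucleotide kinases and related genes only nme7 changed. nme7, of the nucleoside diphosphate kinase family, was at 1.96, 1.10 and 1.73 FPKM in HG, against 5.75, 3.81 and 4.77 FPKM in CG, and fell with a log2 fold change of -1.15 (SE 0.23, limma adjusted p 0.0157), a call lost without HG-2 (0.0504) or CG-1 (0.0502). ntpcr, listed with these genes but not annotated to either pathway, also fell (log2 fold change -1.43, limma adjusted p 0.00732). It had 2.41, 1.77 and 1.31 FPKM in HG and 7.08, 7.10 and 5.47 FPKM in CG, and its call held with each library left out (0.0183 to 0.0299). The abundant nucleoside diphosphate kinase nme2a had 149, 149 and 194 FPKM in HG and 115, 129 and 118 FPKM in CG, without overlap, and did not pass (log2 fold change 0.43, limma adjusted p 0.184).

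Deoxyribonucleotides are made by reduction of ribonucleotides. Of the 6 members of this route 1 rose and 1 fell, where 8.27% and 12.1% of all tested loci did. rrm1, the large subunit of ribonucleotide reductase (MSTRG.17890), was at 2.36, 2.03 and 3.34 FPKM in HG, against 6.74, 4.68 and 7.06 FPKM in CG. It was lower in every HG library and fell with a log2 fold change of -1.0 (SE 0.23, limma adjusted p 0.0275), a call lost without HG-1, HG-2, CG-1 or CG-3 (0.0943, 0.084, 0.0812 and 0.0811). Another rrm1 locus (MSTRG.17892), without the annotation, had 1.01, 1.17 and 1.26 FPKM in HG and 3.59, 1.94 and 1.39 FPKM in CG. It was also lower in every HG library but did not pass (log2 fold change -0.57, limma adjusted p 0.193). The locus that joins dtymk (thymidylate kinase) with agxta (an alanine-glyoxylate aminotransferase) was at 104, 79.5 and 78.0 FPKM in HG, against 14.5, 16.4 and 14.9 FPKM in CG. It rose in every HG library with a log2 fold change of 2.43 (SE 0.21, limma adjusted p 0.00144), but the reads of dtymk and agxta cannot be told apart. rrm2b, the small subunit used outside the cell cycle, had 4.71, 7.04 and 6.42 FPKM in HG and 9.16, 5.28 and 6.39 FPKM in CG, with overlap. The RRM2 copies and tyms, which serve dividing cells, were below the minimum, tyms with a mean of 0.461 FPKM.

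Nucleotides at the cell surface and in the secretory path are hydrolysed by several families. Of their 9 members 1 rose and 2 fell, where 8.27% and 12.1% of all tested loci did. The ectonucleotide pyrophosphatases fell. enpp1 (MSTRG.8812), which cleaves ATP to AMP and pyrophosphate, was at 8.37, 12.9 and 7.31 FPKM in HG, against 50.5, 24.3 and 31.0 FPKM in CG, with a log2 fold change of -1.76 (SE 0.34, limma adjusted p 0.0152). Another enpp1 locus (MSTRG.8813), without the annotation, had 25.7, 27.1 and 21.8 FPKM in HG and 80.1, 52.4 and 66.5 FPKM in CG and fell with a log2 fold change of -1.36 (limma adjusted p 0.0109). The groups did not overlap in either locus. The unnamed locus ENSONIG00000007202, annotated as an enzyme of this family, was at 2.27, 2.56 and 2.69 FPKM in HG, against 18.4, 17.9 and 17.1 FPKM in CG, with little spread, and fell with a log2 fold change of -2.43 (SE 0.18, limma adjusted p 0.00115). Its call held with each library left out, and that of the enpp1 member was lost without HG-1 or HG-3 (0.0606 and 0.0538).

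The rise in this group was that of a locus joining entpd5b, a nucleoside diphosphatase of the endoplasmic reticulum, with aldh6a1. It was at 14.9, 14.7 and 10.5 FPKM in HG, against 3.82, 6.21 and 3.94 FPKM in CG (log2 fold change 1.36, SE 0.25, limma adjusted p 0.0134), a call lost without HG-1 (0.0554), and its parts cannot be told apart. nt5e, which releases adenosine from AMP at the surface, had 5.09, 8.13 and 3.71 FPKM in HG and 1.93, 2.94 and 3.93 FPKM in CG, with overlap (log2 fold change 0.73, limma adjusted p 0.141).

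**Figure D4:**
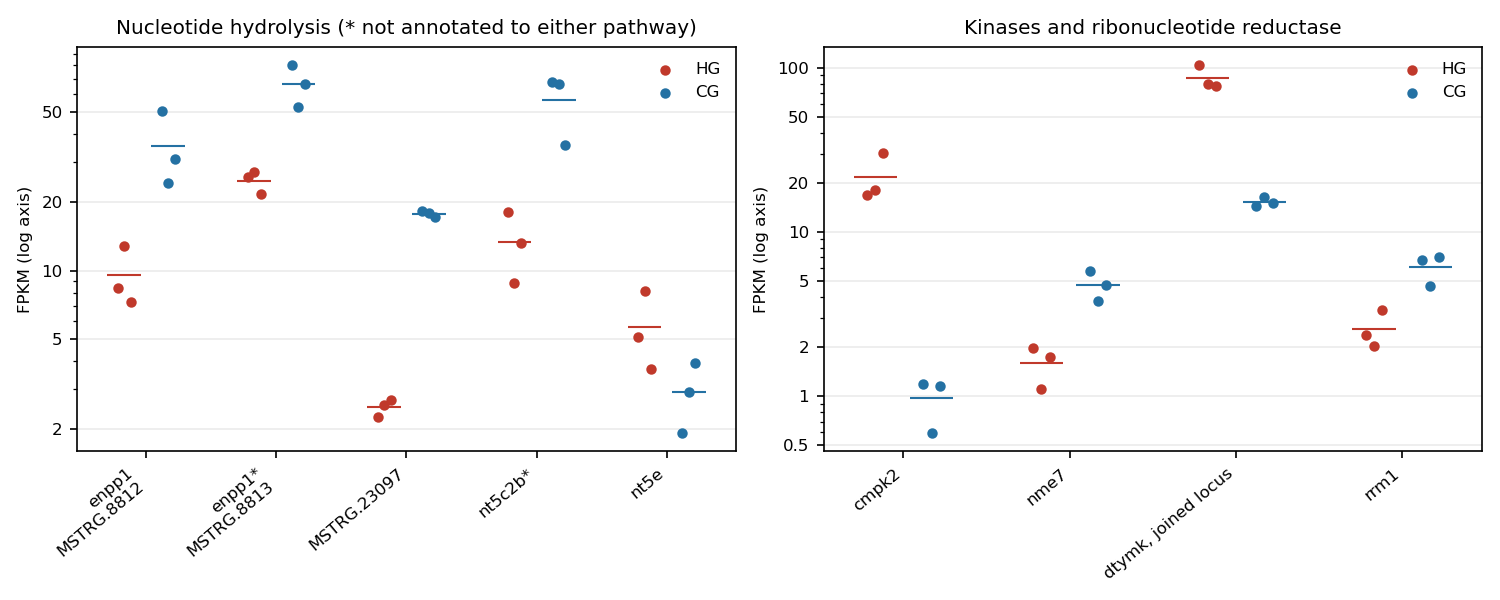
FPKM on a log axis of nucleotide hydrolases (left) and of kinases and ribonucleotide reductase (right), with a point per library and a bar at the mean of the 3 HG (left, red) and 3 CG (right, blue) libraries of each gene. Both enpp1 loci, MSTRG.23097 (ENSONIG00000007202), nt5c2b, nme7 and rrm1 are lower in all HG libraries, and cmpk2 and the locus with dtymk are higher. An asterisk marks a locus that is not annotated to either pathway.

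Enzymes of cyclic nucleotides, which make and degrade cAMP and cGMP, showed no call. None of 12 passed after adjustment, with 4 higher and 3 lower at an unadjusted p under 0.05 in limma and 1 in the Ballgown-style model. Of all 16423 tested loci 20.4% changed, and 2354 were higher and 3662 lower at an unadjusted p under 0.05 in limma. The 12 members are few to set beside these shares. Near the threshold were pde9a, a cGMP phosphodiesterase, at 4.23, 5.70 and 4.53 FPKM in HG and 1.93, 2.76 and 2.93 FPKM in CG (log2 fold change 0.72, limma adjusted p 0.0506), pde5ab, also a cGMP phosphodiesterase, at 2.76, 3.39 and 1.32 FPKM in HG and 0.775, 0.695 and 0.674 FPKM in CG (log2 fold change 0.98, limma adjusted p 0.0552), and NPR2, a receptor that makes cGMP, at 83.9, 75.1 and 72.3 FPKM in HG and 38.7, 48.6 and 52.8 FPKM in CG (log2 fold change 0.72, limma adjusted p 0.057). In all 3, the HG libraries were above CG, and pde5ab passed without HG-3 (limma adjusted p 0.0298). The 3 lower members were pde6g, pde4bb and npr1b, and pde6g lay as near the threshold. It was at 0 FPKM in every HG library and at 4.41, 1.49 and 0.742 FPKM in CG (log2 fold change -1.52, limma adjusted p 0.0584). pde4bb and npr1b had log2 fold changes of -1.28 and -1.0 (limma adjusted p 0.0805 and 0.088).

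**Figure D5:**
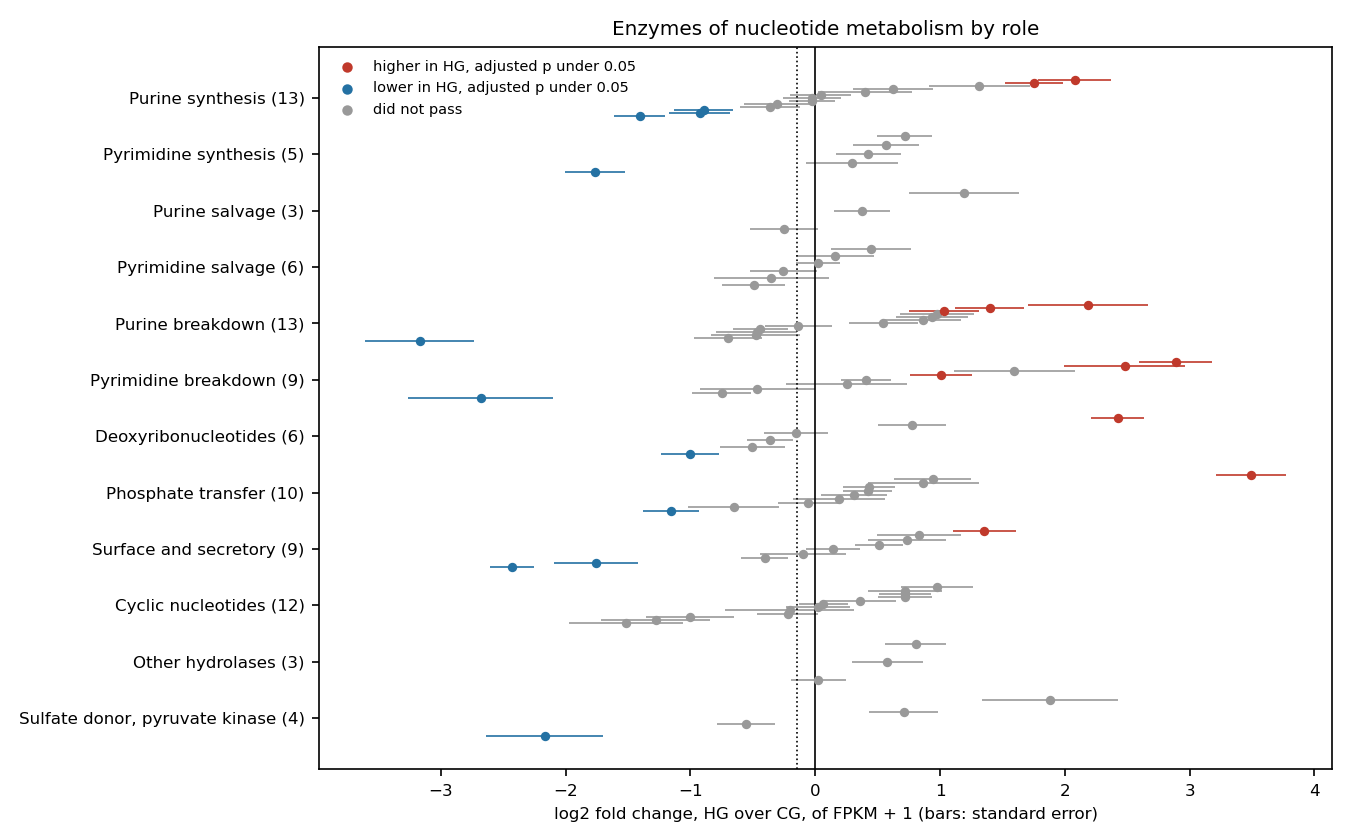
Log2 fold change of HG over CG of FPKM + 1 for the 93 enzymes by role, with the number of members in brackets and a bar for the standard error. Points in red rose and points in blue fell at an adjusted p under 0.05, points in grey did not pass, and the dotted line is the median of all tested loci at -0.14. Breakdown has 6 red and 2 blue points, synthesis 2 red and 4 blue, and salvage and cyclic nucleotides none.

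The 80 members that are not enzymes of nucleotide metabolism had 7 that rose and 6 that fell, where 8.27% and 12.1% of all tested loci did. Their median log2 fold change was -0.15, close to that of all tested loci. The 6 that fell were ppp1r7, erbb2ip, atad2 (MSTRG.6208), si:dkey-156n14.5, dhx8 and lsm14ab, with log2 fold changes of -1.22 to -0.82. Another atad2 locus, MSTRG.24785, rose (log2 fold change 1.31, limma adjusted p 0.0255). The call of MSTRG.24785 was kept without CG-1 only (0.0138) and was lost without any other library (0.0572 to 0.0792). That of MSTRG.6208 was kept without CG-2 only (0.0387) and was lost otherwise (0.0798 to 0.109). Both atad2 loci carry the (1 of many) mark. The largest rise was that of a locus annotated as a helicase, si:dkey-97a13.6, at 32.2, 57.1 and 45.3 FPKM in HG and 5.30, 7.02 and 11.6 FPKM in CG (log2 fold change 2.38, limma adjusted p 0.00565). Of the RNA helicase ddx5, which also acts as a transcriptional coregulator, both loci rose, with log2 fold changes of 1.30 (limma adjusted p 0.042) and 0.98 (0.0218). The call of the locus at 1.30 was lost without any library but HG-2 (limma adjusted p 0.0636 to 0.131), and that of the other without HG-1, HG-3, CG-1 or CG-3 (0.079, 0.0529, 0.0506 and 0.0525).

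Of the 22 enzymes that changed, 9 kept their call with each library left out and in every limma alternative in which they were tested. These were gart, atic, PRPSAP1 (MSTRG.10553), dhodh, pnp5b, upb1, cmpk2, the locus of dtymk and agxta, and ENSONIG00000007202.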

How the data were processed

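Poly(A) RNA of GIFT liver was sequenced in 6 libraries. The authors mapped the reads with HISAT, assembled them with StringTie and deposited FPKM per locus. Versions and genome build are not given in the sources used here, nor is strand use. All columns of sample values were used.

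Values were transformed to log2(FPKM + 1). Loci averaging 1 FPKM or more were compared, HG with CG, by limma 3.58.1 with trend in R 4.3.3 (two-sided, Benjamini-Hochberg over 16423 loci, adjusted p under 0.05). The fit was checked on simulated data. Tables and plots used Python 3.11.15. Read counts were not used, so no count model was fitted.

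Of the members, 87 were assigned a role by lists of symbols and 86 after the table was seen. The members and lists were chosen with earlier results of these data known. Every gene of synthesis, salvage, breakdown and deoxyribonucleotides could be named, with values in every library for those that changed. In the other roles and among unannotated genes, those with an adjusted p under 0.05 could be named, up to 8 per role and direction. Genes named outside this rule (nme2a, nt5e, PKLR, pde9a, pde5ab, NPR2, pde6g, pde4bb, npr1b, the slc25a36b copies, MSTRG.1131 and the markers ncf1 and mmp9) were chosen after their values were seen.

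Alternatives were pseudocounts of 0.1 and 0.5, no minimum or 10 FPKM, median-of-ratios or upper quartile scaling, limma without trend, a Ballgown-style linear model with library size, the replicate number as a block, and leaving out each library.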

Additional observations from a re-analysis of the deposited data

How the results depend on the processing

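Leaving out 1 library at a time gave 8 to 15 members higher and 6 to 13 lower, where all libraries gave 18 and 17. The counts over all tested loci dropped as well, to 784 to 970 higher and 804 to 1434 lower, from 1359 and 1990. For synthesis, leaving out 1 library gave 2 to 3 higher and 2 lower (2 and 4 with all). For salvage it gave 0 to 1 higher and 0 lower, and for breakdown 2 to 6 higher and 1 to 2 lower (6 and 2 with all). The Ballgown-style model called 0 members in every class. With no minimum 12 members were higher and 8 lower, with 2 higher and 2 lower in synthesis and 4 higher and 1 lower in breakdown. With at least 10 FPKM only 32 members were tested, of which 16 were higher and 5 lower. In synthesis 1 was higher and 1 lower, and of 10 breakdown members 8 were higher and 1 lower. Of all loci in that fit 634 were higher and 770 lower. Median-of-ratios scaling gave 31 members higher, with 4 higher and 2 lower in synthesis, and upper quartile scaling gave 28 higher, with 2 lower in synthesis. The replicate number as a block gave 13 members higher and 9 lower, with 2 higher and 2 lower in synthesis. Deviations of same-numbered libraries from their group means correlated weakly (0.0365, -0.102 and -0.081), and 1 of the 3 HG libraries correlated best with its own number. With 3 libraries per group, these correlations cannot show whether the numbers pair samples.

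Of the genes that changed, members and others, 41 were recomputed under the alternatives, and none turned its direction. With at least 10 FPKM only 24 of the 41 were in the fit. Among the genes that did not pass, some did. With 1 library left out, the log2 fold change ran from -0.17 (without HG-2) to 0.20 (without HG-1) for PRPSAP1 (MSTRG.16920), where it was -0.03 without CG-1. It ran from -0.099 to 0.068 for gmps, from -0.47 to 0.0028 for hprt1 and from -0.17 to 0.79 for pfas. gmps was at 0.16 with median-of-ratios scaling, 0.15 with upper quartile scaling and 0.13 in the Ballgown-style model, in which uox was at -0.057 and hprt1 at 0.12. The study gives the reads of each library, with the most for CG-1, but read counts per locus were not used here. The precision of low values such as those of pnp5b in HG was therefore not assessed.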

Other observations

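Genes of nucleotide transport and sensing that are not annotated to either pathway also changed, with 3 of 17 loci higher and 3 lower, where 8.27% and 12.1% of all tested loci were. slc25a33, a mitochondrial pyrimidine nucleotide carrier, was at 10.9, 13.2 and 10.3 FPKM in HG, against 53.8, 86.9 and 83.8 FPKM in CG, and fell with a log2 fold change of -2.58 (limma adjusted p 0.00189). A locus of slc25a36b, of the same carrier family (MSTRG.20576), was at 27.2, 20.4 and 45.1 FPKM in HG, against 153, 127 and 82.2 FPKM in CG, and fell with a log2 fold change of -1.96 (limma adjusted p 0.0138), a call lost without HG-1 (0.056). Neither locus overlapped between the groups. The slc25a36b locus is marked (1 of many), and the 3 other slc25a36b loci had log2 fold changes of -0.19, -0.19 and 0.07 and did not pass, so the split of reads between copies is uncertain.

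Of the adenosine receptors, an ADORA3 locus (MSTRG.16552) was at 1177, 1178 and 868 FPKM in HG, against 86.0, 55.4 and 253 FPKM in CG, and rose with a log2 fold change of 3.31 (limma adjusted p 0.00848). Its neighbour in number, MSTRG.16553, also named ADORA3, rose with a log2 fold change of 2.54 (limma adjusted p 0.0106). Both ADORA3 loci are marked (1 of many), and a level this high makes their naming worth checking. adora2aa fell, at 0.082, 0.169 and 0.409 FPKM in HG, against 2.40, 1.23 and 1.76 FPKM in CG (log2 fold change -1.18, limma adjusted p 0.0345), a call that was kept without CG-2 only (0.0458) and was at 0.0504 to 0.0861 without any other library. adprm, an ADP-ribose and CDP-alcohol diphosphatase, was listed at 0 in all CG libraries and had 5.82, 6.54 and 7.35 FPKM in HG (MSTRG.1130). The locus MSTRG.1131, which joins adprm with map2k4b, had 1.09, 2.41 and 1.31 FPKM in HG and 5.21, 2.28 and 2.68 FPKM in CG (log2 fold change -0.73, limma adjusted p 0.148). Reads of adprm may be split between these loci, so its level in CG cannot be read from the first.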
